A study of Homo sapiens with 6 samples.

Results

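Transcripts of the ionotropic and metabotropic glutamate receptors and of the GABA receptors were examined in iNeurons depleted of RBM12. The genes were chosen by name, as those whose symbol denotes a subunit of an AMPA, NMDA, kainate, delta or metabotropic glutamate receptor or of a GABA-A or GABA-B receptor, and no expression value enters the naming rule, although this family was taken up with earlier results of these data known. This gave 43 of the 19823 genes in the table, namely 4 AMPA, 7 NMDA, 5 kainate, 2 delta and 7 metabotropic glutamate receptor genes, 16 GABA-A subunit genes and 2 GABA-B genes. GRM6, GABRA4, GABRA6 and GABRR3 were not among the genes in the table under these symbols and were not analysed here. The iNeurons were glutamatergic excitatory cells derived from the human iPSC line WTc11, and in all 6 samples RBM12, an RNA-binding protein, had been knocked down by CRISPR interference. There were 3 untreated samples and 3 samples that had received isoproterenol, an agonist of beta-adrenergic receptors that raises cAMP. The labels state no dose or duration of that treatment. The parental iPSC line was clonal, carried a doxycycline-inducible NGN2 transgene and expressed dCas9-KRAB. Neurons with a control guide were not analysed here, which leaves the extent of the knockdown unmeasured in these samples. The paper reports that depletion was checked by qPCR and Western blotting in guide-sorted cells, described for its line that overexpressed the adrenergic receptor. Every comparison here is between isoproterenol and untreated neurons on the same knockdown background. The labels do not say whether replicates came from separate cultures, so the spread between these samples may be partly technical. The p-values without pairing measure that spread. Those within same-numbered pairs measure what is left once differences between replicates are taken out, and in limma both draw partly on a variance trend over all genes.

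Glutamate opens the AMPA, NMDA and kainate receptors, which are tetrameric cation channels, and activates the metabotropic receptors, which are G protein-coupled. AMPA receptors carry most fast excitatory current, whereas NMDA receptors need the obligatory GluN1 subunit, encoded by GRIN1, and pass calcium once the cell is depolarized. GABA-A receptors are pentameric chloride channels assembled mostly from alpha and beta subunits with a gamma, delta, epsilon or theta partner, and the rho subunits can form channels of their own. GABA-B receptors are obligate heteromers of the products of GABBR1 and GABBR2 and lower cAMP through inhibitory G proteins. Isoproterenol acts through the opposite branch, in which cAMP activates PKA and PKA phosphorylates CREB, a transcription factor that binds the cAMP response element (CRE).

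The start regions of 4 subunit genes on which the comparison turned are shown first, because CREB binds near transcription starts. Each sequence is the RefSeq window from 250 bases before to 50 bases after the start, on GRCh38.p14, written 5′ to 3′ on the strand of the gene. GABRE, encoding the epsilon subunit of the GABA-A receptor, lies on the minus strand (window chrX:151974627-151974926). GABRQ, encoding the theta subunit, lies on the plus strand (chrX:152637645-152637944). GRIN3A, encoding the NMDA receptor subunit GluN3A, lies on the minus strand (chr9:101738598-101738897), as does GABRB2, encoding the GABA-A beta-2 subunit (chr5:161546676-161546975). Capitals mark the CRE half-site TGACG, searched on both strands, where it reads CGTCA on the reverse strand.
GABRE: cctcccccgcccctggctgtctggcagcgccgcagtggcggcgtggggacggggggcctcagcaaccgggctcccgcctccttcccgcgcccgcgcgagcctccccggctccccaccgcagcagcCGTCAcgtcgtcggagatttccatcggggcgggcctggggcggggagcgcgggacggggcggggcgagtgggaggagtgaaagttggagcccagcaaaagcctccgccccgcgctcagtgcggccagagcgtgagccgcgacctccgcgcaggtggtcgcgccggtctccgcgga
GABRQ: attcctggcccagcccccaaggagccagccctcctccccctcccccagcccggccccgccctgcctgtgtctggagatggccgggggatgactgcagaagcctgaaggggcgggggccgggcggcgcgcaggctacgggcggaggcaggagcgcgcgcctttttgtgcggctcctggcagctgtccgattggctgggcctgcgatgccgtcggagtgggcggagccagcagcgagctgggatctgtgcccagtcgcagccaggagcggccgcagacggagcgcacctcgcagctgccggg
GRIN3A: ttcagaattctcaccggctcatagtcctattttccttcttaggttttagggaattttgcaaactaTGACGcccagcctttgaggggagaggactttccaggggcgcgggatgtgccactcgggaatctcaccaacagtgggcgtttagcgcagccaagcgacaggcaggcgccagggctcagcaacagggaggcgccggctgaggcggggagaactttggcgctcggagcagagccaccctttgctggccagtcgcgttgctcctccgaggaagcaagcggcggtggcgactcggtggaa
GABRB2: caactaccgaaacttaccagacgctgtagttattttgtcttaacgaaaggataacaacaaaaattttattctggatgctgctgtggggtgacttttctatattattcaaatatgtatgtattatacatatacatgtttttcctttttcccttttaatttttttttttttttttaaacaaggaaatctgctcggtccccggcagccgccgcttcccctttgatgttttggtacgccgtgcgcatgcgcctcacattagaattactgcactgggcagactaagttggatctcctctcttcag

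The GABRE window held 1 half-site, read on the reverse strand and beginning 125 bases before the start, and the GRIN3A window held 1, beginning 185 bases before it. The GABRQ and GABRB2 windows held none. The windows also differed in base composition, with a G+C content of 76.7% for GABRE, 73.7% for GABRQ, 60.0% for GRIN3A and 39.0% for GABRB2. RefSeq windows were found for 30 of the 43 members, some with several starts, and 13 members, including GRIN1, GABRA3 and GRIK1, had none in the table used. TGACG occurred in 17 of 47 member windows (36.2%), belonging to 13 genes, and in 24.6% of all 35116 windows of the same length. The full palindrome TGACGTCA, which contains the half-site on both strands, occurred in 1.85% of all windows and in 1 member window, that of GABBR1. These are matches of letters only.

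The labelled cell type was checked against marker genes. Transcripts of the vesicular glutamate transporters were abundant, SLC17A6 at 12393 to 14710 and SLC17A7 at 2968 to 3318 normalized counts, a normalized count being the number of reads divided by a size factor for the library. Other genes listed for glutamatergic neurons were near 0, TBR1 at 3.99 to 8.28, NEUROD1 at 3.87 to 11.97 and NEUROD2 at 3.10 to 10.4. Summed over GAD1, GAD2, SLC32A1 and LHX6, none of which reached the level called expressed below, GABAergic markers stood at 58.5 to 67.2 normalized counts in untreated and 76.1 to 88.2 in isoproterenol samples, without overlap. Its members did not all go one way, GAD1 (log2 fold change 0.74) and GAD2 (0.49) being higher and SLC32A1 (-0.38) lower in all 3 same-numbered pairs, and none of them passed the test described below. Of 6 astrocyte markers 3 were in the table, with sums of 3137.5 to 3469 and 3026 to 3361 that came almost wholly from SLC1A2, and the 3 oligodendrocyte lineage markers, mainly MBP, summed to 1047 to 1090.3 and 1101 to 1171. Pluripotency markers were near 0, POU5F1 and LIN28A together reaching 14.4 to 28.8 across the samples. In bulk RNA, a smaller number of cells of one type and less RNA per cell cannot be told apart, and the part of these markers in the results below was not tested. Libraries held between 18116816 and 21488793 reads in genes.

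A subunit was called expressed when it had at least 1 read per kilobase of merged exons per 1000000 reads in all 6 samples, and low when it had fewer but more than 5 reads in at least 4 samples. By this measure 29 of 43 members were expressed, 12 were low and 2 lay below the limit and were not tested. The expressed members included 4 of 4 AMPA, 5 of 7 NMDA, 4 of 5 kainate, 5 of 7 metabotropic, 8 of 16 GABA-A and 2 of 2 GABA-B genes. The low members included GRIN2C, GRIN3B, GRIK2, GRM8, GABRD, GABRE, GABRG1, GABRG3 and GABRQ, and GABRP and GABRR2 had between 0 and 9 reads in any library. With the length of the Ensembl canonical transcript in place of merged exons 33 members were expressed, and GRIK2, GRM8 and GABRE were among those that then crossed the limit.

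Levels within a class were compared per kilobase of merged exons, as mean normalized counts per kilobase ± SD over the 6 samples. Among the AMPA receptor genes, GRIA4 (chr11:105609535-105982090, plus strand) stood at 510 ± 21.5, followed by GRIA2, whose edited product limits calcium entry, at 141 ± 9.47. GRIA1 (82.3 ± 4.41) and GRIA3 (72.0 ± 5.92) came last, and their ranges overlapped. Among the NMDA receptor genes, GRIN3A reached 1661 ± 92.1, the highest mean of any member by merged exons, and GRIN2D 269 ± 17.8. GRIN1, encoding the obligatory subunit, stood at 63.2 ± 8.94, overlapping GRIN2A (57.7 ± 2.31), while GRIN2B (46.0 ± 2.34), GRIN3B (22.1 ± 5.65) and GRIN2C (8.85 ± 2.27) were each apart from their neighbours. Per kilobase, GRIN3A exceeded GRIN1 by 20.3 to 35.7-fold in the 6 samples, and by 8.40 to 14.8-fold with the canonical transcript lengths, because the merged exons of GRIN1 (11041 bases) are longer than its canonical transcript (4379 bases).

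Kainate receptor transcripts were led by GRIK5, which encodes a subunit that needs a GluK1 to GluK3 partner, at 587 ± 28.0 normalized counts per kilobase. GRIK1 (220 ± 15.5), GRIK3 (128 ± 14.5), GRIK4 (30.8 ± 3.73) and GRIK2 (19.1 ± 1.05) followed, each apart from the next. The order of the last 2 depended on the length used, since by canonical transcript length GRIK2 (mean 109) stood above GRIK4 (39.6). The delta receptor gene GRID1 stood at 204 ± 13.0. The metabotropic receptor genes were lower and closer together. GRM4 (83.6 ± 5.52) and GRM7 (81.5 ± 4.67), both of the Gi-coupled group III, overlapped, as did GRM2 (39.4 ± 6.15), GRM5 (37.4 ± 3.76) and GRM3 (32.1 ± 10.4), and GRM8 stood below them at 19.4 ± 2.28.

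GABRA3, encoding the alpha-3 subunit, led the GABA-A genes at 1044 ± 68.7 normalized counts per kilobase, ahead of GABRA5 (133 ± 4.43) and GABRB2 (71.2 ± 18.3), each apart from the next. GABRR1 (36.5 ± 10.9), GABRQ (34.3 ± 14.2), GABRB1 (33.8 ± 4.11), GABRA2 (27.5 ± 1.18), GABRE (25.0 ± 12.8) and GABRG3 (14.9 ± 1.89) formed a run in which each overlapped the next. By canonical transcript length GABRE (mean 76.3) stood above GABRQ (34.3). GABRD (6.35 ± 1.46) and GABRG1 (2.39 ± 0.623) were lower. Both GABA-B genes were abundant, GABBR1 at 1519 ± 45.9 and GABBR2 at 523 ± 13.7.

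**Figure D1:**
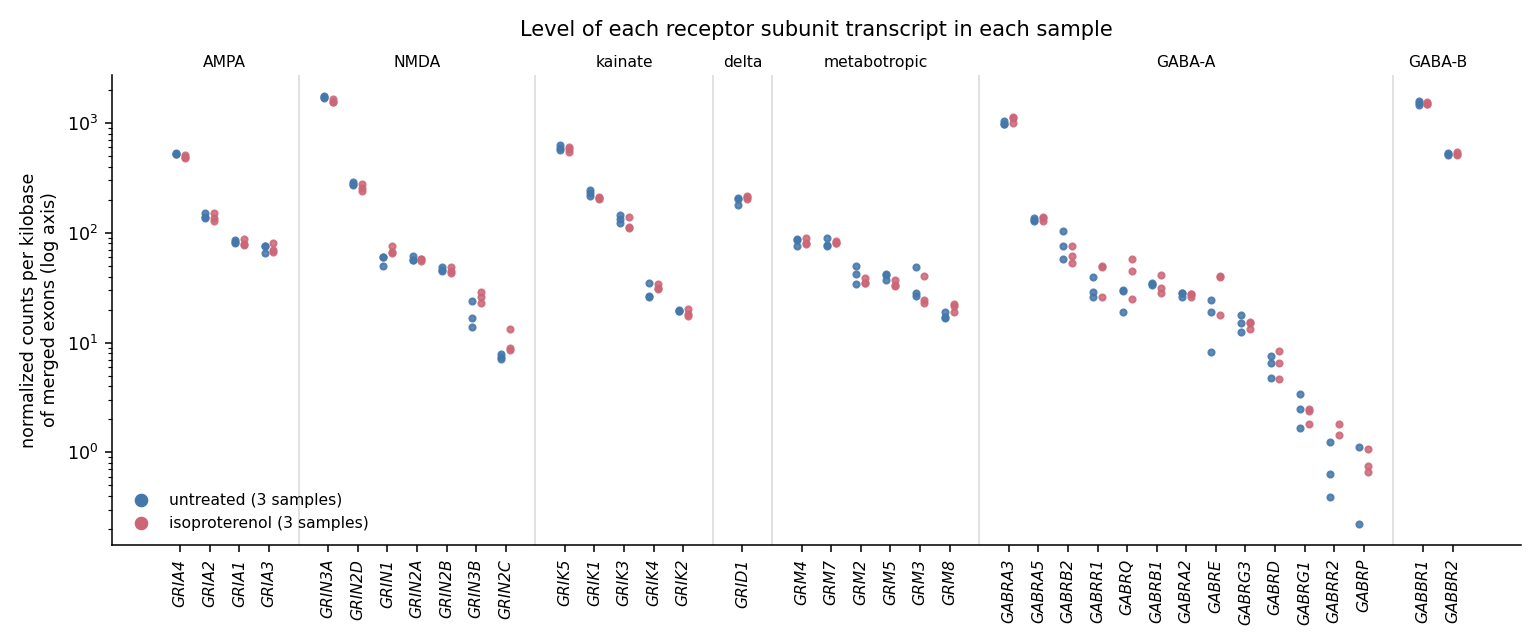
Normalized counts per kilobase of merged exons (log axis) for 38 of the 43 members, with blue points for the 3 untreated and red points for the 3 isoproterenol samples; values of 0, 1 each for GABRP and GABRR2, are not drawn. GRIN3A, GABBR1 and GABRA3 stand highest, and GABRE and GABRQ spread widely within both groups.

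The share of each class held by its most abundant subunit differed little between groups. GRIN3A made up 78.7% ± 0.45 (SD, n = 3) of NMDA receptor transcript per kilobase in untreated and 77.3% ± 0.497 in isoproterenol samples, while GRIN1 made up 2.59% ± 0.319 and 3.39% ± 0.377. GRIK5 held 59.0% ± 0.863 and 60.3% ± 0.333 of the kainate class and GABRA3 53.9% ± 0.810 and 55.5% ± 1.02 of the GABA-A class. In these 3 classes the 3 isoproterenol values lay on 1 side of the 3 untreated values, which gives the smallest p that a two-sided exact permutation test of 3 against 3 samples can reach, 0.1, or 0.175 after Benjamini-Hochberg adjustment over the 7 classes. GRIA4 held 63.9% ± 1.09 and 62.8% ± 0.308 of the AMPA class (exact p = 0.2), GRM4 27.3% ± 3.81 and 28.2% ± 2.72 of the metabotropic class (exact p = 0.7) and GABBR1 74.6% ± 0.690 and 74.2% ± 1.01 of the GABA-B class (exact p = 0.5). The same subunit led each of these classes by canonical transcript length, although the share of GABRA3 then moved from 54.7% to 38.3% over the 6 samples.

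**Figure D2:**
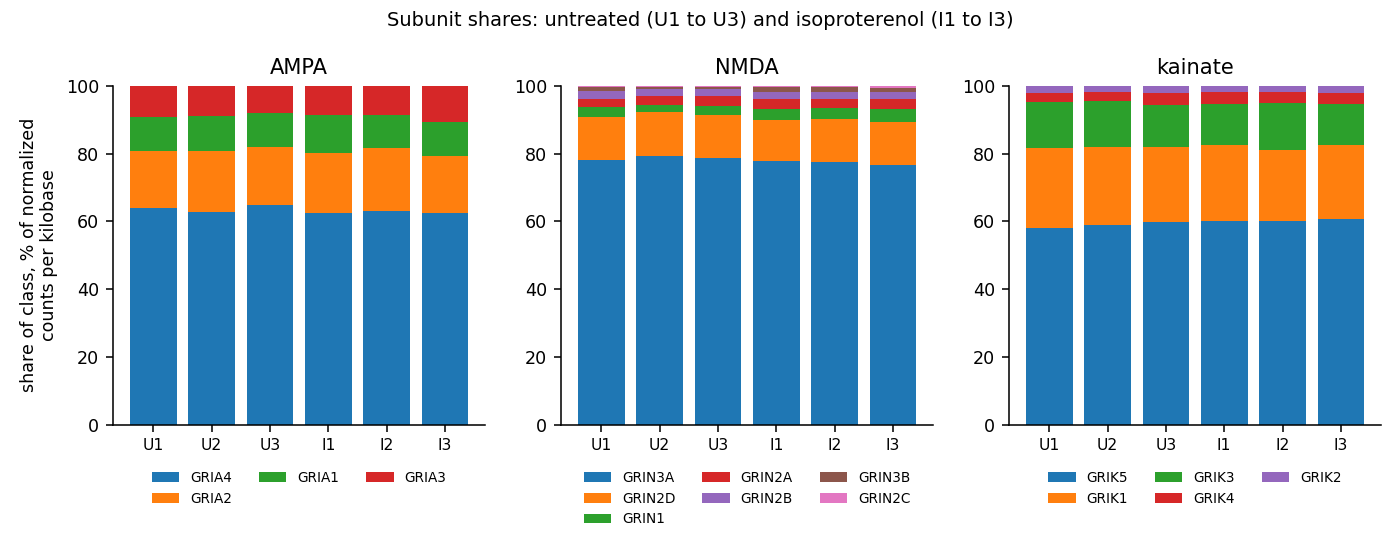
Share of each subunit in its class, in percent of normalized counts per kilobase of merged exons, for the AMPA, NMDA and kainate classes in untreated samples 1 to 3 (U) and isoproterenol samples 1 to 3 (I). GRIA4, GRIN3A and GRIK5 each hold more than any other subunit of their class in all 6 samples.

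Class totals per kilobase also lay close together in the 2 groups. Summed NMDA receptor transcript was 2200.4 ± 31.5 (SD, n = 3) in untreated and 2056.5 ± 87.3 in isoproterenol samples, a log2 difference of -0.10 with all 3 isoproterenol samples below the untreated ones (exact permutation p = 0.1, adjusted 0.525 over 7 classes). The within-pair log2 differences of this total were -0.12, -0.05 and -0.12 for replicates 1, 2 and 3. AMPA totals differed by -0.07 (exact p = 0.2), with within-pair differences of -0.07, -0.06 and -0.08. Kainate totals differed by -0.08 (exact p = 0.3), with within-pair differences of -0.11, -0.07 and -0.05. All 3 pairs were thus lower in the NMDA, AMPA and kainate classes, for which an exact sign-flip permutation test within pairs gave p = 0.25, the smallest that 3 pairs allow. The remaining totals had pairs on both sides of 0 and differed in the metabotropic class by -0.06 (exact p = 0.6) and in the GABA-A class by 0.08 (exact p = 0.3). The GABA-B total was 2042 ± 68.5 and 2042 ± 25.3 (exact p = 1.0).

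The comparison of isoproterenol with untreated neurons asked which of these transcripts responded to the agonist when RBM12 was depleted. Over 18130 genes tested with limma without pairing, 0 of the 41 tested members passed FDR 0.05, where 0.0165% of all genes did, 0.00552% being higher and 0.011% lower. The smallest adjusted p among members in this limma fit was 0.364, for GRIN1, and edgeR and DESeq2 without pairing also called 0. At an unadjusted p under 0.05 the limma fit held 10 members (24.4%), against 7.68% of all genes, among them GRIA4, GRIN1, GRIN2C, GRIN2D, GRIN3A, GRIN3B, GRIK1, GRM5 and GABRA3. The median log2 fold change (isoproterenol over untreated, on log2(normalized count + 1) throughout) was -0.03 for members and 0.0015 for all genes, and 17 of 41 members (41.5%) had a positive value, against 50.5% of all genes. Leaving out isoproterenol replicate 2 brought 1 member, GABRQ, past the threshold without pairing, the adjusted p in that limma fit being 0.0491.

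Same-numbered samples deviated together from their group means, so the comparison was also made within pairs, by limma with replicate number as a block (blocked limma). In that fit 9 of the 41 members (22.0%) passed FDR 0.05, where 4.88% of all genes tested did, 2.82% being higher and 2.06% lower. GABRE, GABRQ, GRIN1 and GABRA3 rose, and GABRB2, GRIN3A, GRIK1, GRIK3 and GRIA4 fell. Restricted to a mean normalized count of 100 or more, 9 of 34 members (26.5%) passed, against 7.16% of all such genes. All 3 pairs moved the same way for 8 members that were higher and 13 that were lower (51.2% together), against 36.1% of all genes tested (18.5% higher and 17.6% lower). The groups did not overlap for 7 members, 2 higher and 5 lower (17.1%), near the 12.9% of all genes (6.73% higher and 6.19% lower). By receptor type this was 28.0% of the 25 tested glutamate receptor genes and 0.0% of the 16 tested GABA receptor genes, a split that was not tested. With edgeR and the same block 10 members passed, GRIN2D being added, against 5.39% of all genes. The blocked calls rested on the trended and robust estimate of the variance, since without it 0 members and 0 genes of the whole table passed, and with 1 library left out, which leaves 2 pairs, between 5 and 9 members passed. Leaving out either library of a pair leaves the same 2 pairs to the blocked fit, so these 6 fits amount to 3 separate checks. GABRE, GABRQ, GRIN1, GRIN3A and GABRB2 passed in 6 of 6 such fits. GABRA3, GRIK3 and GRIA4 passed only in the 2 without replicate 2 of either group, and GRIK1 only in the 2 without replicate 3.

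**Figure D3:**
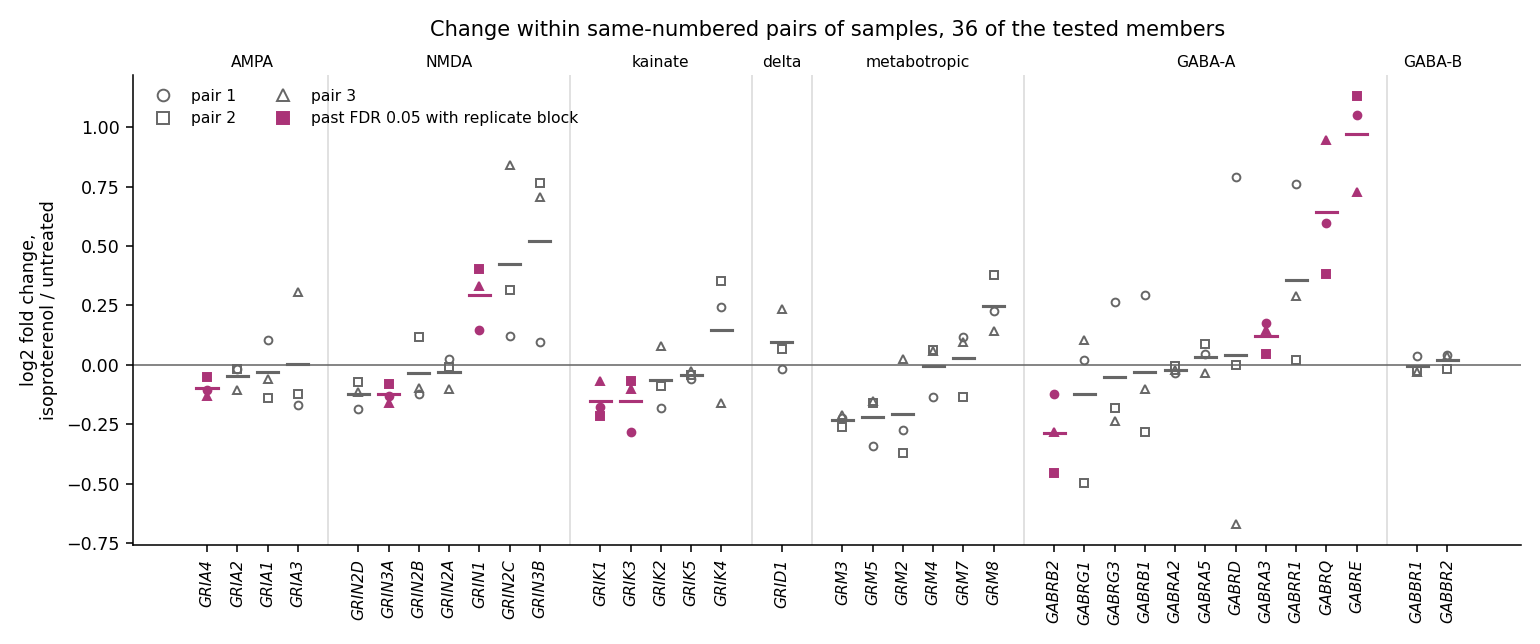
Log2 fold change within each same-numbered pair (circle, pair 1; square, pair 2; triangle, pair 3) for 36 of the 41 tested members, by class, with a bar at their mean; filled magenta marks members past FDR 0.05 with the replicate block. GABRE and GABRQ lie highest with all 3 pairs above 0, and the 5 members called lower have all 3 pairs below 0.

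The largest changes were in 2 minor GABA-A subunits. GABRE (chrX:151953124-151974680, minus strand) was at 183, 78.4 and 236 normalized counts in untreated replicates 1, 2 and 3, and at 380.2, 173 and 391 in isoproterenol replicates 1, 2 and 3. The groups overlapped because both replicate 2 libraries were low, yet the isoproterenol sample was the higher in every pair. The log2 fold change was 0.97 ± 0.11 (SE in blocked limma), a 1.96-fold difference, with an adjusted p of 2.2e-12 in blocked limma and 0.778 in limma without pairing. GABRQ (chrX:152637895-152657542, plus strand) was at 193, 123 and 191 in untreated replicates and at 292, 160.3 and 370.3 in isoproterenol replicates, again with replicate 2 lowest in both groups. Its log2 fold change was 0.64 ± 0.11, or 1.56-fold (adjusted p = 4.6e-06 in blocked limma, 0.775 in limma without pairing). Over the 6 blocked limma fits that left out a library, adjusted p stayed between 1.7e-14 and 9.2e-09 for GABRE and between 5.5e-08 and 0.0181 for GABRQ. In limma with the block but without the variance trend and robust moderation, adjusted p was 0.467 for GABRE and 0.4735 for GABRQ. The size was less settled, since in limma without pairing the log2 fold change of GABRE was 0.51 when untreated replicate 2 was left out and 1.35 when isoproterenol replicate 2 was. For GABRQ it was 0.38 with isoproterenol replicate 3 left out, 0.43 with untreated replicate 2 left out and 0.99 with isoproterenol replicate 2 left out. Exons of GABRE overlap those of the microRNA genes MIR224 and MIR452 on the same strand over 166 bases.

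GABRE and GABRQ flank GABRA3 in a cluster on Xq28, which spans 704.42 kb (chrX:151953124-152657542). GABRA3 (chrX:152166234-152451315, minus strand) was at 4074, 4067 and 4295 in untreated and 4598, 4198 and 4756 in isoproterenol samples. Its replicate 2 with isoproterenol lay within the untreated range, and the log2 fold change was 0.12 ± 0.03 (adjusted p = 0.00223 in blocked limma, 0.582 in limma without pairing), rising to an adjusted p of 0.0712 to 0.124 in blocked limma without replicate 1 or 3 of either group. All 3 genes of the cluster were therefore called higher with the block. Within 1000000 bases on either side 28 further genes were tested, none of them between GABRE and GABRQ, and 2 were called higher, 3 lower and 23 neither in blocked limma. Of these, GPR50, which encodes an orphan receptor related to the melatonin receptors, had a log2 fold change of 0.79 (adjusted p = 1.0e-16 in blocked limma) and its neighbour KC877982.1 of 0.78, while PNMA5 (-0.80), HMGB3 (-0.13) and ATP2B3 (-0.11) were lower. None of these 5 passed in limma without pairing, where the adjusted p was 0.446 to 0.757.

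**Figure D4:**
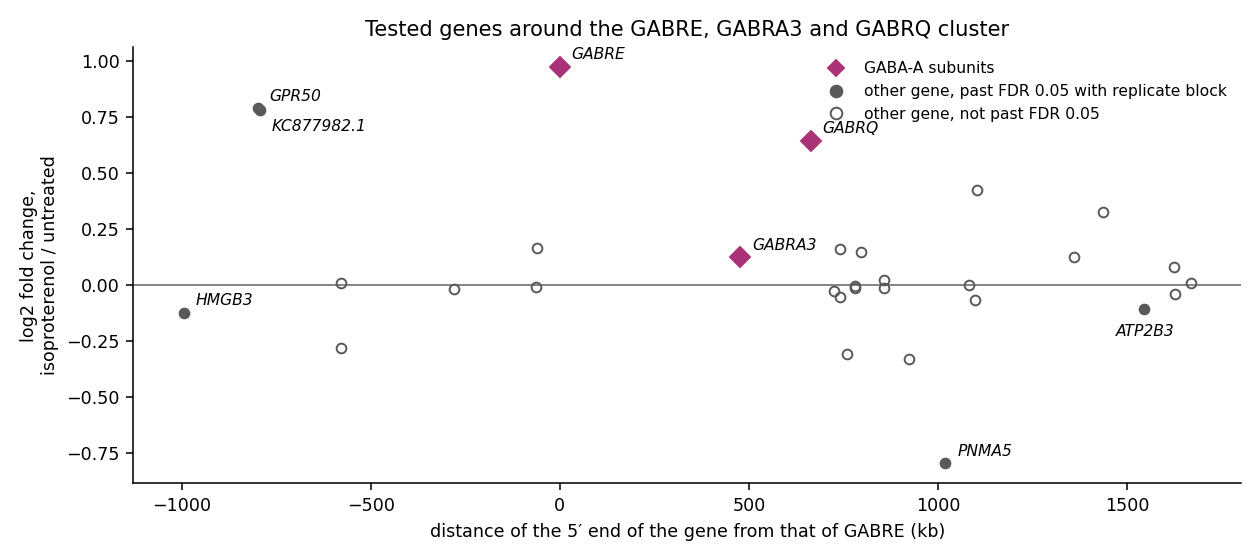
Log2 fold change of the 31 genes tested within 1000000 bases of the Xq28 cluster against the distance of their 5′ end from that of GABRE in kilobases; diamonds are the GABA-A subunits, filled circles other genes past FDR 0.05 with the replicate block and open circles the remaining genes. GABRE, GABRA3 and GABRQ lie above 0 and passed with the block. Of the 28 other genes, 2 passed above 0 (GPR50 and KC877982.1), 3 passed below 0 and 23 did not pass.

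GABRB2 (chr5:161288429-161549044, minus strand), which encodes a beta subunit of the most common synaptic GABA-A receptors, went the other way. It was at 994, 1775 and 1290.0 normalized counts in untreated and 912, 1294 and 1059.6 in isoproterenol samples. Replicate 2 was the highest in both groups, so that the groups overlapped, but the isoproterenol sample was the lower in all 3 pairs. The log2 fold change was -0.29 ± 0.05 (adjusted p = 5.7e-06 in blocked limma, 0.864 in limma without pairing, and 6.1e-09 to 0.0175 in blocked limma with a library left out). Within pairs 1, 2 and 3 it was -0.12, -0.46 and -0.28. In limma without pairing, where leaving out a library also takes in the difference between replicates, it ranged more widely. It was -0.07 with untreated replicate 2 left out, -0.17 with isoproterenol replicate 1 left out and -0.49 with untreated replicate 1 left out. GABRR1 was higher in all 3 pairs but with unequal steps, its within-pair log2 fold changes being 0.76, 0.02 and 0.29 (adjusted p = 0.113 in blocked limma, and 0.0261 to 0.785 with a library left out, the lowest without replicate 2). Of the further GABA-A genes, GABRA2, GABRA5, GABRB1, GABRD, GABRG1 and GABRG3 lay between -0.12 and 0.04 and passed in neither fit.

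**Figure D5:**
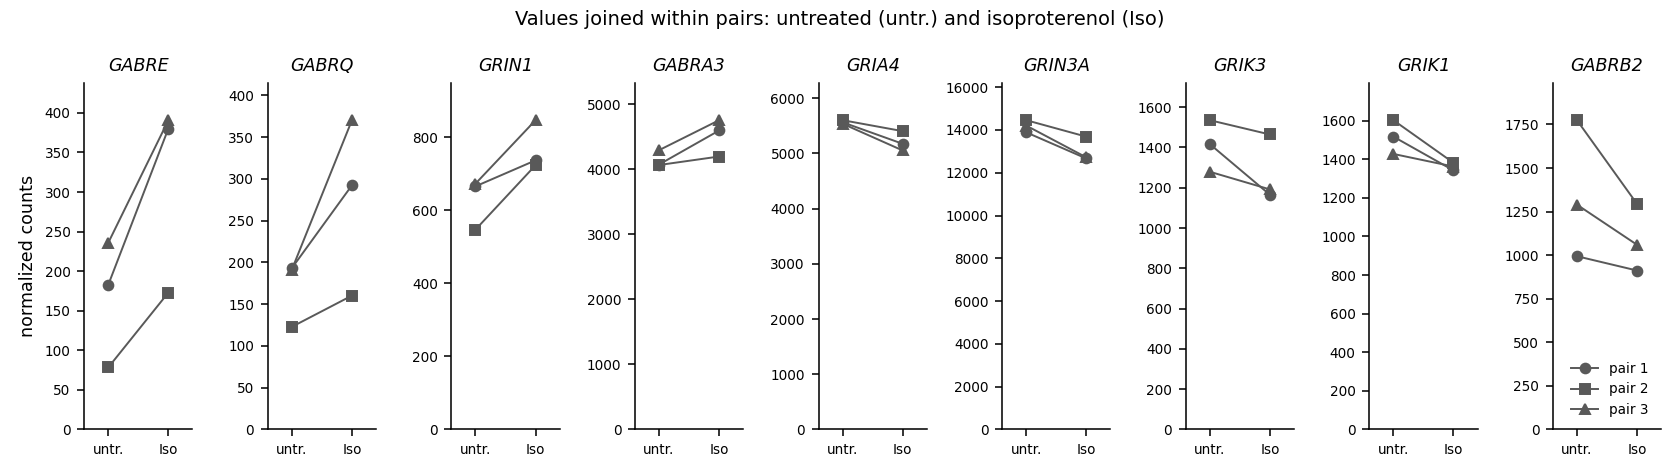
Normalized counts of the 9 members past FDR 0.05 with the replicate block, each panel with its own axis from 0, in untreated (untr.) and isoproterenol (Iso) samples, with lines joining same-numbered samples. Every line rises for GABRE, GABRQ, GRIN1 and GABRA3 and falls for GRIA4, GRIN3A, GRIK3, GRIK1 and GABRB2, and pair 2 starts lowest for GABRE and GABRQ and highest for GABRB2.

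Among the NMDA receptor genes, the obligatory subunit and the most abundant subunit changed in opposite directions, which brought their levels closer. GRIN1 (chr9:137138346-137168756, plus strand) was at 665, 547 and 672 normalized counts in untreated and at 736, 723 and 846 in isoproterenol samples, so that every isoproterenol sample exceeded every untreated one. Its log2 fold change was 0.29 ± 0.06 (adjusted p = 2.7e-04 in blocked limma, 0.364 in limma without pairing). GRIN3A (chr9:101569352-101738647, minus strand), which encodes a subunit that lowers calcium permeability, was at 13891, 14458 and 14207 in untreated and 12667, 13688 and 12719 in isoproterenol samples. Here every isoproterenol sample was below every untreated one, and the log2 fold change was -0.12 ± 0.02 (adjusted p = 2.6e-06 in blocked limma, 0.389 in limma without pairing). Both kept their calls whichever library was left out of blocked limma, with an adjusted p of at most 0.0261 for GRIN1 and 0.0042 for GRIN3A. The ratio of GRIN1 to GRIN3A per kilobase was 0.0355, 0.0281 and 0.0351 in untreated and 0.0431, 0.0392 and 0.0494 in isoproterenol samples.

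GRIN2D, which encodes a subunit known from early development, was at 1508, 1600.5 and 1531 in untreated and 1325, 1522 and 1412 in isoproterenol samples, lower in all 3 pairs (log2 fold change -0.12 ± 0.04). It did not pass in blocked limma (adjusted p = 0.0631) and passed in edgeR with the same block (adjusted p = 0.0466). GRIN2C was at 67.9, 61.0 and 63.1 in untreated and 73.8, 76.1 and 114 in isoproterenol samples, without overlap, but with within-pair log2 fold changes from 0.12 to 0.84 (adjusted p = 0.17 in blocked limma). GRIN3B, whose log2 fold change was 0.52 (adjusted p = 0.0759 in blocked limma), shares 85 exonic bases with TMEM259 on the opposite strand. GRIN2A (log2 fold change -0.03) and GRIN2B (-0.03), the main GluN2 subunits of the forebrain, passed in neither fit.

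Among the AMPA and kainate receptor genes, the called changes were all small falls. GRIA4, the leading AMPA subunit, was at 5563, 5602 and 5537 normalized counts in untreated and 5174, 5403 and 5053 in isoproterenol samples, without overlap. Its log2 fold change was -0.10 ± 0.03 (adjusted p = 0.0136 in blocked limma, 0.596 in limma without pairing), and without replicate 1 or 3 of either group the adjusted p in blocked limma was 0.11 to 0.258. GRIA2 was at 1986, 2176 and 1957 in untreated and 1963, 2152 and 1817 in isoproterenol samples (log2 fold change -0.05 ± 0.04), and GRIA1 (-0.03) and GRIA3 (0.0041) had pairs on both sides of 0. Hence 1 of 4 AMPA genes passed.

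GRIK1 (chr21:29536933-29940033, minus strand), encoding GluK1, was at 1517, 1602 and 1428 in untreated and 1342, 1382 and 1362 in isoproterenol samples, and the groups did not overlap. The log2 fold change was -0.15 ± 0.04 (adjusted p = 0.0161 in blocked limma, 0.531 in limma without pairing), and it did not pass without replicate 1 or 2 of either group (0.122 to 0.216 in blocked limma). GRIK3 (chr1:36795527-37034515, minus strand), encoding GluK3, was at 1417, 1536 and 1279.6 in untreated and 1165, 1465 and 1192 in isoproterenol samples. Its groups overlapped, and all 3 pairs were lower, with a log2 fold change of -0.15 ± 0.04 (adjusted p = 0.0263 in blocked limma, 0.739 in limma without pairing). Without replicate 1 or 3 of either group the adjusted p of GRIK3 in blocked limma was 0.0521 to 0.521. Within pairs 1, 2 and 3 the log2 fold change of GRIK3 was -0.28, -0.07 and -0.10. In limma without pairing it was -0.09 with either untreated replicate 2 or isoproterenol replicate 1 left out and -0.26 with isoproterenol replicate 2 left out. GRIK5, the most abundant kainate subunit, was at 3277, 3592 and 3363 in untreated and 3142, 3489.8 and 3305 in isoproterenol samples, a log2 fold change of -0.04 ± 0.03 that did not pass. GRIK2 (-0.06) and GRIK4 (0.15) had pairs on both sides of 0.

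The delta receptor gene GRID1 was at 1278, 1292 and 1117 in untreated and 1263, 1352 and 1316 in isoproterenol samples, and its groups overlapped (log2 fold change 0.09 ± 0.05). It passed in neither fit.

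None of the metabotropic glutamate receptor genes passed in either fit, and their log2 fold changes ran from -0.23 to 0.25. GRM5, a Gq-coupled group I receptor, was at 364, 361 and 325 in untreated and 287, 323 and 292 in isoproterenol samples, without overlap (log2 fold change -0.22 ± 0.08, adjusted p = 0.131 in blocked limma). Of its 8694 merged exon bases, 4364 overlap GRM5-AS1 on the opposite strand. GRM3, which shares 847 exonic bases with GRM3-AS1 on the opposite strand, was lower in all 3 pairs by near-equal steps of -0.22, -0.26 and -0.21 and GRM8 higher in all 3, by 0.22, 0.38 and 0.14, and neither passed. GRM4 was at 1441, 1244 and 1412 in untreated and 1311, 1301 and 1469.9 in isoproterenol samples, and GRM7 at 706, 809 and 691 in untreated and 766, 737 and 739 in isoproterenol samples. Both had pairs on either side of 0.

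The GABA-B genes differed by less than the spread between replicates. GABBR1 (chr6:29555629-29633976, minus strand) was at 12334, 13391 and 12888 in untreated and 12638, 13162 and 12625 in isoproterenol samples, a log2 fold change of -0.0065 ± 0.02. GABBR2 (chr9:98288109-98708935, minus strand) was at 3733, 3805 and 3902 in untreated and 3847, 3761 and 4008 in isoproterenol samples, a log2 fold change of 0.02 ± 0.03. The groups overlapped for both, and the ratio of GABBR1 to GABBR2 per kilobase stayed between 2.74 and 3.06 in the 6 samples.

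Genes that traffic, anchor or modulate these receptors were read from the same fits. Of 51 listed, 50 were in the table and tested and 44 were expressed. In limma without pairing 0 passed, with 3 at an unadjusted p under 0.05, and edgeR and DESeq2 without pairing also called 0. In blocked limma 4 of 50 (8.0%) passed, CACNG4, CACNG5 and CBLN2 higher and IGSF9B lower. The share was 4.88% of all genes and 7.16% of genes with a mean normalized count of 100 or more, which is close to that of this mostly expressed list. The median log2 fold change of the list was 0.03. None of the 15 glutamate scaffold genes, among them DLG4 (-0.03), SHANK3 (0.02) and HOMER1 (0.0028), passed in either fit.

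CACNG4, encoding the AMPA receptor auxiliary subunit TARP gamma-4, was at 5817, 5858 and 5943 in untreated and 6293, 6226 and 6239 in isoproterenol samples, without overlap (log2 fold change 0.09 ± 0.03, adjusted p = 0.0164 in blocked limma). Its neighbour on chromosome 17, CACNG5, was at 1306, 1213 and 1014 in untreated and 1424, 1311 and 1196 in isoproterenol samples, higher in all 3 pairs (log2 fold change 0.16 ± 0.05, adjusted p = 0.0207 in blocked limma). CBLN2, encoding a secreted ligand of the delta receptors, was at 322, 184 and 397 in untreated and 422, 246 and 454 in isoproterenol samples, with replicate 2 lowest in both groups, as for GABRE and GABRQ. Its log2 fold change was 0.33 ± 0.08 (adjusted p = 0.00662 in blocked limma). IGSF9B, an adhesion protein of inhibitory synapses, was at 3825, 3810.5 and 3847 in untreated and 3594, 3797 and 3277 in isoproterenol samples, without overlap (log2 fold change -0.11 ± 0.03, adjusted p = 0.0221 in blocked limma). With a library left out of blocked limma, CACNG4 passed in 0 of 6 fits. CACNG5 passed only without replicate 2 of either group and CBLN2 only without replicate 3. IGSF9B passed without replicate 1 or 2 of either group but not without replicate 3. With a library left out of limma without pairing, the log2 fold change of CBLN2 lay between 0.02 (untreated replicate 2 left out) and 0.61 (isoproterenol replicate 2 left out). For CACNG5 it lay between 0.05 (untreated replicate 3 left out) and 0.24 (untreated replicate 1 left out), and for IGSF9B between -0.16 (isoproterenol replicate 2 left out) and -0.05 (isoproterenol replicate 3 left out).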

How the data were processed

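RNA-seq libraries from poly(A)-selected RNA were aligned by the authors with STAR, counted with featureCounts (Subread) and scaled with DESeq2 on GRCh38. The paper names its library kits, a directional one among them, for HEK293 libraries. Versions and the strand setting of the counting are not given in the sources used here. The deposited table holds a signal value per gene and sample, read counts divided by the DESeq2 size factor of the library. Dividing by the step between low values returned whole reads (tolerance 0.01) for 100.0% of values in each library.

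Genes with more than 5 reads in at least 4 of the 6 samples were kept (18130 tested, 1693 removed). The main test was limma 3.58.1 (trend, robust) on log2(normalized count + 1) with Benjamini-Hochberg adjustment over all tested genes and a threshold of 0.05, in R 4.3.3, and edgeR 4.0.16 and DESeq2 1.42.0 were run on the recovered reads. Libraries held 18116816 to 21488793 reads. The labels number the replicates in both groups, and samples with a shared number departed from their group mean together (correlations of 0.269, 0.493 and 0.388 over 11587 genes). The 6 other combinations gave -0.351 to 0.00584. They are not an independent comparison, because departures from a group mean sum to 0, so positive values for shared numbers push the others down. For this reason of shared departures limma was also fitted with the replicate number as a block. Class totals and shares were compared by two-sided exact permutation tests (3 against 3, smallest p 0.1). Lengths came from GENCODE release 44, and promoter windows from RefSeq. Alternatives were other scalings, filters, pseudocounts, moderation and tests, and leaving out each library.

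The subunits were selected by a rule on gene names, but that family and the list of auxiliary and scaffold genes were chosen with earlier results of these data known. Values per sample were given for members past the threshold in either limma fit, the 2 most abundant members of each class, and up to 5 further members with the largest log2 fold change whose groups did not overlap (mean of at least 10 normalized counts). GRM3, GRM8, GRIN3B and GABRR1 were singled out after their values were seen. Some members and other items are not reported here.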

Additional observations from a re-analysis of the deposited data

How the results depend on the processing

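Without pairing, 0 receptor subunit genes and 0 auxiliary and scaffold genes passed FDR 0.05 in limma under every scaling, filter, pseudocount and moderation tried and in edgeR and DESeq2. The replicate block gave 9 and 4 in limma and 10 and 6 in edgeR, the added genes being GRIN2D, FRRS1L and KCTD16. Leaving out 1 library without the block gave 0 to 1 subunit genes, the 1 being GABRQ without isoproterenol replicate 2, and 0 to 0 auxiliary genes. With the block, leaving out 1 library gave 5 to 9 subunit genes, 5 without replicate 1 of either group, and 1 to 3 auxiliary genes. Dropping the variance trend and robust moderation with the block gave 0 and 0, an alternative chosen after seeing the data, like the others that kept the block and the canonical transcript lengths. By canonical length the GABA-B total differed by -0.00081 on the log2 scale, opposite in sign to the value by merged exons. Leaving out 1 library turned the sign of small differences, the log2 fold change running from -0.037 to 0.022 for GABBR1, -0.0035 to 0.042 for GABBR2, -0.11 to 0.012 for GRIA2, -0.070 to 0.035 for GRM4 and -0.016 to 0.097 for GRM7, and the GABA-B total from -0.026 to 0.022. The GRM4 share then ran from -1.28 to 2.23 percentage points and the GABBR1 share from -0.911 to 0.0947. The cause of these changes was not tested. Scaling moved the median log2 fold change of all genes by less than 0.01. Over all tested genes the block raised the number of calls from 3 to 885, including 5 neighbours of the Xq28 cluster.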
